A study of Mus musculus with 4 samples.

Results

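The 9 genes described here encode nuclear receptor coregulators, the proteins through which ligand-bound or unbound receptors switch transcription on or off: Nrip1, Ncor1 and Kdm1a on the side of corepression, and Ncoa1, Ncoa2, Ncoa3, Med1, Crebbp and Ep300 on the side of coactivation. They were chosen by name, as rows whose gene symbol is a listed coregulator, with earlier results of these data known. All 9 were found among the 23420 genes of the count tables and among the 14256 genes tested. RNA was sequenced from E14 cells, a wild-type, feeder-free mouse embryonic stem cell line cultured with leukemia inhibitory factor. Of the 4 libraries, 2 came from cells exposed for 24 h to 1 µM all-trans retinoic acid (ATRA) and 2 from cells at 0 h, described as the control for that treatment. The titles give the ATRA concentration as micromolar while a treatment label gives millimolar units, and the titles were followed. Dimethyl sulfoxide is named as vehicle, but whether the 0 h cells received it is not stated. ATRA exposure and 24 h of further culture therefore cannot be told apart. The labels do not say whether the replicates were grown as separate cultures. If they were not, each p-value reflects technical spread between libraries alone.

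As background, retinoic acid receptors sit on DNA as heterodimers with retinoid X receptors. Without ligand they hold corepressor complexes built around NCoR proteins and histone deacetylases. Ligand binding reshapes the receptor surface, which then binds leucine-rich LXXLL motifs in coactivators of the p160 family, and these recruit the acetyltransferases CBP and p300 and the Mediator complex. RIP140, the product of Nrip1, also carries LXXLL motifs and binds liganded receptors, yet it recruits repressors and so dampens their output. Nrip1 is known as a retinoic acid-induced gene in several cell types.

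One gene of the 9, Nrip1, passed the test (edgeR adjusted p under 0.05), as did 1.13% of all genes tested. It was about 7-fold more abundant after 24 h of ATRA. The other 8, from the corepressor scaffold gene Ncor1 to the acetyltransferase gene Ep300, did not pass, which does not show that they were unchanged. Nrip1 was the least abundant of the 9 per kilobase of transcript at 0 h and stood sixth with ATRA. The promoter windows of Nrip1 are shown first, because this is the member that passed the test and because RefSeq gives it a pair of start sites. The window of Kdm1a is shown beside them because it is the only member window in the table that holds the consensus core AGGTCA. Each window runs from 250 bases before to 50 bases from the start site on, read 5′ to 3′ on the gene's own strand (RefSeq, GRCm38.p6). Capitals mark the 6-base core motifs of retinoid receptors, searched on both strands. The forms searched were the consensus AGGTCA and the variant AGTTCA, and likewise GGGTCA with its own variant GGTTCA.
Nrip1 upstream start, chr16:76373778-76374077, minus strand: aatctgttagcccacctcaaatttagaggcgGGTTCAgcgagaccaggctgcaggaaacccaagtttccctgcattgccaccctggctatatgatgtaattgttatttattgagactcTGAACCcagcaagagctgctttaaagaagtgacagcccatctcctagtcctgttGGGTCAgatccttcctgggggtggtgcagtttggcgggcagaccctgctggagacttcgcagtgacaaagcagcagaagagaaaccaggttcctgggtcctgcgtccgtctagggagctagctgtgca
Nrip1 downstream start, chr16:76373000-76373299, minus strand: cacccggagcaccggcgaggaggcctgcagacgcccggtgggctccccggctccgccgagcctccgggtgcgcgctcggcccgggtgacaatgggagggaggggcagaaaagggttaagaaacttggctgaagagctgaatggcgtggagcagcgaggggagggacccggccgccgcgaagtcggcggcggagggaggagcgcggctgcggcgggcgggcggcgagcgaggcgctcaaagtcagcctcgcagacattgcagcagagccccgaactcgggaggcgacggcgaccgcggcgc
Kdm1a, chr4:136602674-136602973, minus strand: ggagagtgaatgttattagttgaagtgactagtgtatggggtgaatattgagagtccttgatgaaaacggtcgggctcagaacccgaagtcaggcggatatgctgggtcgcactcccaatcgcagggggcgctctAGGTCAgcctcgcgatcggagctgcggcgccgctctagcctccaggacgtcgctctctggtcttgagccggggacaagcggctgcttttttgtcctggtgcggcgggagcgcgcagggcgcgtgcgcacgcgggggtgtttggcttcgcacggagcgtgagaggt

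The upstream Nrip1 window held 3 core motifs, GGTTCA on the gene's strand 219 bases before the start site, GGTTCA on the other strand 132 bases before it, and GGGTCA on the gene's strand 78 bases before it. The downstream window held 0. It was also the richer in CpG dinucleotides, with 40 against 6, and in GC content, with 73.3% against 52.7%. The Kdm1a window held 1 motif, AGGTCA, 115 bases before the start. Among all 32851 RefSeq promoter windows of this length, 43.7% held at least 1 core motif and 16.3% held AGGTCA. Of the 9 members, 7 had windows in the table, 9 in all. The only other motif in them was a GGTTCA in the more downstream of the Ncor1 windows. Direct repeats of these cores with a spacer of 1, 2 or 5 bases were in 0 of the 9 windows, and in 0.222%, 0.268% and 0.0974% of all windows. A match describes the letters of these windows only.

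Counts assigned to genes ranged from 11086233 to 13337972 in the ATRA libraries and from 21484812 to 31005634 in the control libraries, so ATRA was measured at lower depth. A gene with a count of 0 could still have a true count of up to 3, which stood for 0.212 to 0.309 CPM with ATRA and for 0.094 to 0.134 CPM at 0 h, where CPM are counts scaled to a common library size, adjusted by TMM factors. Such limits cover counting error only. The lowest count of any member was 230, far above that. The spread between replicates exceeded counting error: chi-square divided by its degrees of freedom was 76.9 for the ATRA pair and 9.65 for the control pair. Transcript GC content separated the ATRA pair. When genes were sorted by GC content into 10 equal bins, ATRA replicate 2 over replicate 1 had a median log2 ratio of 0.85 in the lowest bin and −1.31 in the highest. The fold change of ATRA over control also fell with GC content (Spearman rho −0.75, over 14145 genes that are not independent of each other). Fold changes after a per-library GC correction therefore stand beside the uncorrected ones below. A difference between the groups that goes with GC content is lost in the correction, whatever its origin.

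The labelled cell type was checked with 10 stem cell markers, among them Pou5f1, Nanog and Zfp42, and all 10 reached at least 1 CPM in a library. Their summed level was 1368 to 1692 CPM in the ATRA libraries and 3754 to 3760 CPM in the controls. All sums in this paragraph are without GC correction. At an edgeR adjusted p under 0.05, 3 of them (Zfp42, Esrrb and Utf1) fell and 0 rose, and Pou5f1 and Nanog did not pass. After the GC correction 7 fell, Pou5f1 and Nanog among them, and 0 rose. Of all genes 0.407% fell and 0.723% rose, or 7.70% and 8.53% after correction. The 7 neural progenitor markers summed to 292 to 397 CPM with ATRA and 235 to 282 CPM at 0 h, and 1 rose, or 3 after correction. Of 7 neuronal markers (271 to 302 CPM with ATRA, 482 to 511 CPM at 0 h) 1 rose and 1 fell. After correction 2 rose (Dcx and Syn1) and 2 fell (Tubb3 and Stmn2). Most of their sum lay in Stmn2, with means of 227 CPM with ATRA and 355 CPM at 0 h. The 10 extraembryonic endoderm markers (143 to 145 CPM with ATRA, 199 to 237 CPM at 0 h, Ttr at 0 in every library) gave 0 calls. After GC correction 4 rose (Gata6, Gata4, Sox7 and Dab2) and 1 fell (Lama1). At 0 h most of their sum lay in Col4a1 (means of 53.1 CPM with ATRA and 125 CPM at 0 h) and Lama1 (24.8 and 67.3 CPM). The 8 fibroblast markers (115 to 120 CPM with ATRA, 165 to 226 CPM at 0 h) also gave 0 calls, with 2 rises and 0 falls after GC correction. The part of these cell populations in the results below was not tested. In such bulk RNA, a change in the share of a cell type and a change in RNA per cell cannot be told apart.

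Nrip1 encodes RIP140, a corepressor that binds liganded receptors. The gene (ENSMUSG00000048490.14) lies on chromosome 16 from 76287400 to 76373827, on the minus strand in the GENCODE M21 annotation of GRCm38. Its longest protein-coding transcript has 4 exons, and the whole coding sequence, 3483 bases, sits in 1 of them, from 76291185 to 76294667. It had 75.4 and 67.2 CPM in ATRA replicates 1 and 2, against 9.18 and 10.2 CPM in control replicates 1 and 2, from 1067, 652, 293 and 230 counts. Both ATRA libraries lay far above both controls. The means were 71.3 ± 5.78 CPM with ATRA and 9.71 ± 0.750 CPM at 0 h (SD, n = 2 each). The log2 fold change of ATRA over control was 2.88 ± 0.30 (SE, 95% interval from 2.15 to 3.60), 7.35-fold on the linear scale, with an adjusted p of 0.0271 (edgeR's quasi-likelihood test, Benjamini-Hochberg adjustment over all genes tested). Over the 14256 genes, 161 were called (1.13%), 103 higher (0.723%) and 58 lower (0.407%), or 232 and 371 with scaling by DESeq2 size factors. All 161 calls and the others given here are at an adjusted p under 0.05.

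The Nrip1 transcript has a GC content of 43.6%, in bin 2 of the 10, where the median uncorrected log2 fold change was 0.82. Its ATRA libraries went the other way from that bin: replicate 2 stood below replicate 1 by a log2 ratio of −0.17, while the median of the bin was 0.65. After GC correction Nrip1 was at 72.2 and 42.2 CPM with ATRA against 11.9 and 13.1 CPM at 0 h, and the groups still did not overlap. The corrected log2 fold change was 2.20 ± 0.28 (95% interval from 1.48 to 2.91), 4.58-fold, with an edgeR adjusted p of 0.0162, in a fit that called 16.2% of all genes, 8.53% higher and 7.70% lower. Nrip1 was thus 1 of 103 rises without the correction and 1 of 1216 with it. Leaving out control replicate 1 ended the uncorrected call (log2 fold change 2.79, edgeR adjusted p = 0.0747), and leaving out control replicate 1 or 2 ended the corrected one (2.12 and 2.26, edgeR adjusted p of 0.148 and 0.133). These fits called 0.874% of all genes without control replicate 1, and after correction 0.245% without control replicate 1 and 0.173% without control replicate 2. Over all alternatives the adjusted p ranged from 1.44e-12 to 0.148, and the value stayed above 0 throughout, with a lowest corrected value of 1.77 without ATRA replicate 1.

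**Figure D1:**
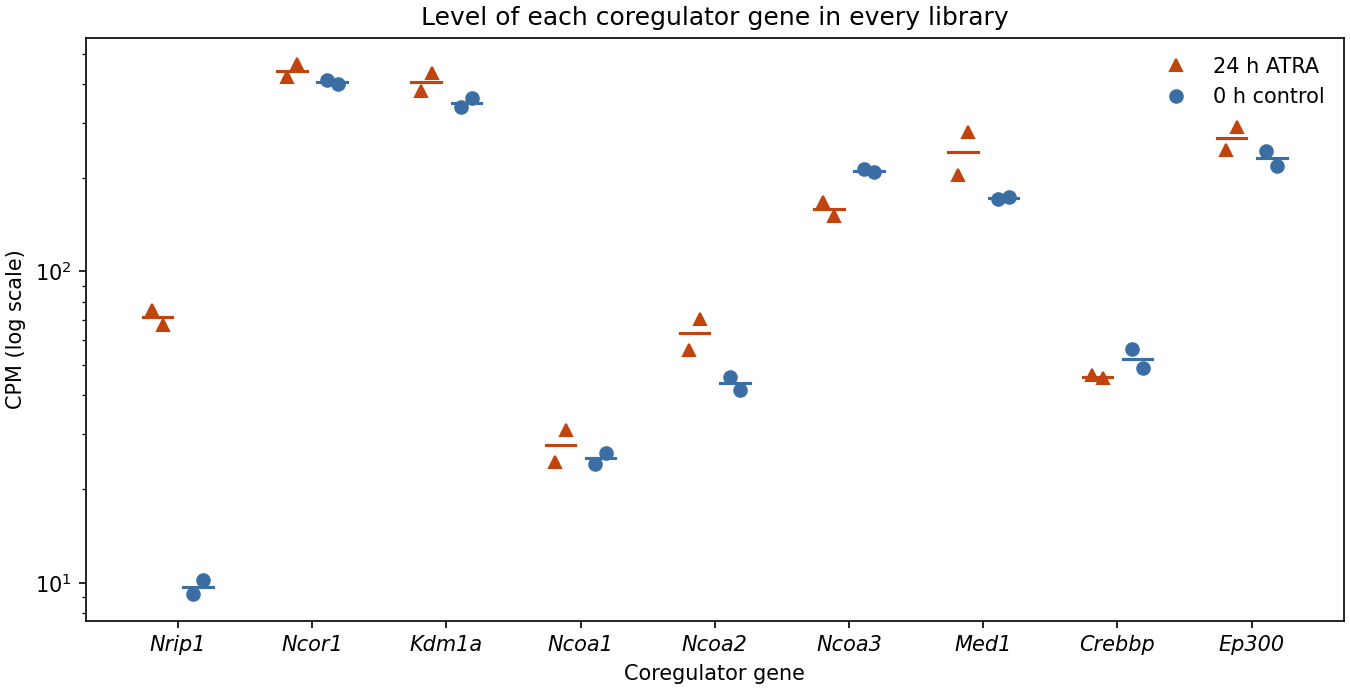
Level of the 9 coregulator genes in CPM (log axis), with 24 h ATRA libraries as triangles left of the 0 h control libraries as circles and a bar at each mean of 2 libraries. Nrip1 lies at 67.2 and 75.4 CPM with ATRA against 9.18 and 10.2 CPM at 0 h, and the other 8 genes differ by less than 1.5-fold between the group means.

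The other corepressor genes, Ncor1 and Kdm1a, did not pass the test. Ncor1 encodes the nuclear receptor corepressor, the scaffold that holds histone deacetylase complexes on unliganded receptors, and lies on chromosome 11 from 62316426 to 62458541, minus strand. It had 419 and 462 CPM with ATRA and 412 and 399 CPM at 0 h. Both ATRA libraries were above both controls, but the nearest ATRA and control libraries were closer to each other than the 2 controls were. The log2 fold change was 0.12 ± 0.26 (95% interval from −0.50 to 0.74), with an edgeR adjusted p of 0.726, and −0.07 with an interval from −0.29 to 0.15 after GC correction, where its order turned: 410 and 415 CPM with ATRA lay below 442 and 421 CPM at 0 h. On the opposite strand the annotation places Ttc19 and Pigl, whose spans overlap that of Ncor1. Since no source used here gives the strand setting of the counting, how reads from such overlaps were assigned is not known.

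Kdm1a encodes the lysine demethylase LSD1, the catalytic subunit of the CoREST repressor complex, which can also act with activating receptors. Its locus spans 136550540 to 136602723 on the minus strand of chromosome 4, with Luzp1 on the opposite strand. It had 378 and 433 CPM with ATRA and 337 and 359 CPM at 0 h, so both ATRA libraries were above both controls. The log2 fold change was 0.22 ± 0.26 (edgeR adjusted p = 0.518). After GC correction it was 0.52 ± 0.18 (interval from 0.07 to 0.97), the largest corrected value among the 8, with an unadjusted p of 0.0302 and an edgeR adjusted p of 0.0974. The corrected ATRA libraries were at 374 and 529 CPM, farther apart than before correction, against 305 and 325 CPM at 0 h.

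The p160 coactivators bind liganded receptors directly and are encoded by 3 paralogous genes. Ncoa1 (SRC-1), on chromosome 12 from 4247362 to 4477182, minus strand, had 24.4 and 30.8 CPM with ATRA against 24.1 and 26.1 CPM at 0 h. Its groups overlapped, and the log2 fold change was 0.14 ± 0.30 (edgeR adjusted p = 0.734), or −0.02 after GC correction. Ncoa2 (GRIP1 or TIF2), on chromosome 1 from 13139105 to 13374083, minus strand, had 55.9 and 70.5 CPM with ATRA against 45.9 and 41.5 CPM at 0 h. Both ATRA libraries were higher, at 0.53 ± 0.28 on the log2 scale (interval from −0.15 to 1.22, edgeR adjusted p = 0.186) and of 0.29 after GC correction (edgeR adjusted p = 0.174).

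Ncoa3 (SRC-3), on chromosome 2 from 165992636 to 166073242, plus strand, with Sulf2 on the opposite strand, went the other way. It had 167 and 151 CPM with ATRA against 213 and 209 CPM at 0 h, both ATRA libraries below both controls. The log2 fold change was −0.40 ± 0.25 (interval from −1.02 to 0.21, edgeR adjusted p = 0.248). After GC correction it was −0.34 ± 0.09 (interval from −0.57 to −0.11), with an unadjusted p of 0.0117 and an edgeR adjusted p of 0.0599. In that fit it was the nearest of the 8 to the threshold, where Ncoa2 was in the uncorrected fit and Kdm1a in the corrected fit with the replicate block (edgeR adjusted p = 0.0598, against 0.123 for Ncoa3). Without ATRA replicate 1 or 2 it passed, at −0.50 and −0.32 uncorrected (edgeR adjusted p of 0.000749 and 0.0142), but those fits called 69.0% and 48.9% of all genes.

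The remaining coactivators carry the signal from p160 proteins to chromatin and polymerase. Med1, the Mediator subunit that binds liganded receptors through LXXLL motifs, lies on chromosome 11 from 98152154 to 98193293, minus strand. It had 204 and 279 CPM with ATRA against 170 and 174 CPM at 0 h, the ATRA libraries higher but wide apart. Its log2 fold change was 0.49 ± 0.28 (edgeR adjusted p = 0.215), and 0.08 with an interval from −0.17 to 0.33 after GC correction. The log2 ratio of ATRA replicate 2 to replicate 1 was 0.45 for Med1, the highest among the 9, and its transcript GC content is 46.7%.

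Crebbp and Ep300 encode the paired acetyltransferases CBP and p300. Crebbp, on chromosome 16 from 4081328 to 4213997, minus strand, had 46.4 and 45.4 CPM with ATRA against 56.2 and 48.8 CPM at 0 h. Its ATRA libraries were lower, by a log2 value of −0.19 ± 0.27 (edgeR adjusted p = 0.586), and the sign turned with GC correction, to 0.10. Ep300, on chromosome 15 from 81585351 to 81652077, plus strand, had 245 and 290 CPM with ATRA against 243 and 218 CPM at 0 h. Its lower ATRA library lay just above the higher control, and the log2 fold change was 0.22 ± 0.26 (edgeR adjusted p = 0.535), or 0.41 after GC correction (interval from −0.03 to 0.85, edgeR adjusted p = 0.150).

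**Figure D2:**
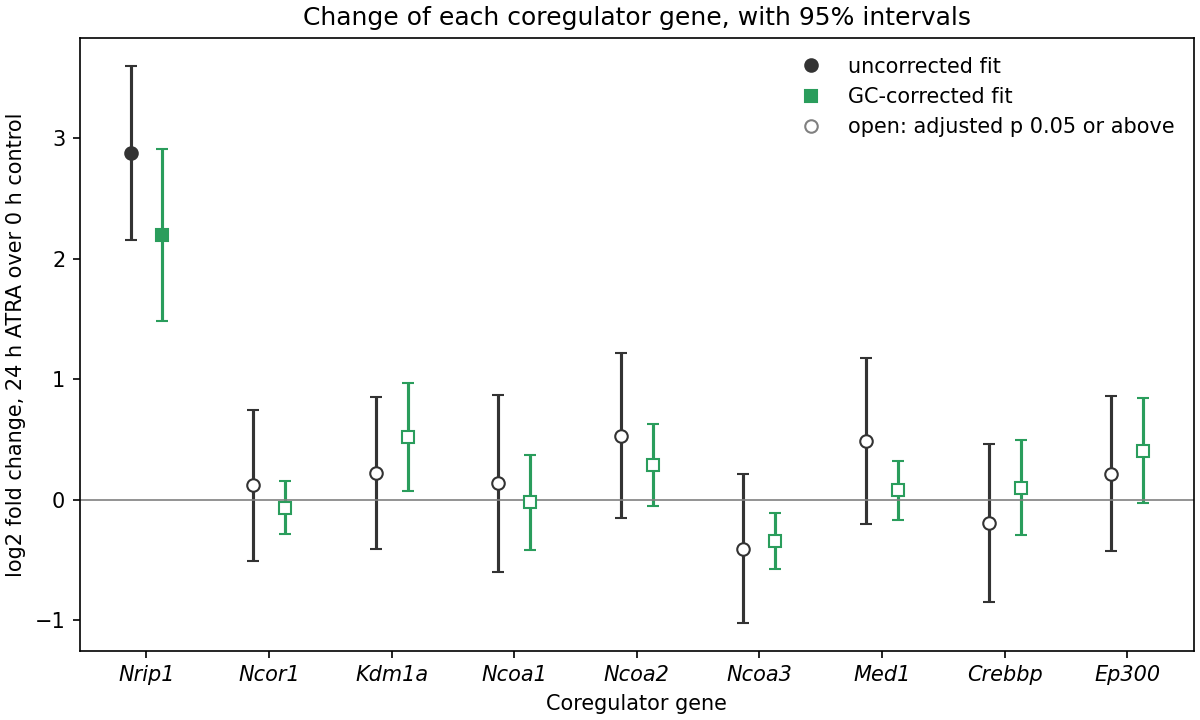
Log2 fold change of each coregulator gene, ATRA over 0 h control, with 95% intervals, in the uncorrected fit (circles) and the GC-corrected fit (squares), filled where the adjusted p is under 0.05. Nrip1 is filled at 2.88 and 2.20, and the uncorrected upper bounds of the other 8 reach at most 1.22.

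Of the 9 genes, 6 had both ATRA libraries above both controls and 2 had both below. Over all genes tested the same held for 40.0% and 41.5%, so separate groups are the usual case in these libraries. After GC correction 5 members were above and 2 below, against 35.5% and 34.8% of all genes. The median log2 fold change was 0.22 over the 9 members and −0.02 over all genes tested, and after GC correction 0.10 and 0.02. Among the 8 members that did not pass, uncorrected values ran from −0.40 to 0.53 and corrected ones from −0.34 to 0.52. The uncorrected 95% interval of Nrip1, from 2.15, began above the highest upper bound among the 8, the 1.22 of Ncoa2. DESeq2's Wald test called the same member, Nrip1, and 0 others, among 30.5% of all genes. With ATRA replicate 1 left out, 5 members rose (Ncoa2, Nrip1, Med1, Ep300 and Kdm1a) and Ncoa3 fell, and with ATRA replicate 2 left out, 3 rose (Ncoa2, Nrip1 and Med1) and Ncoa3 fell. These fits called 69.0% and 48.9% of all genes. After GC correction, 4 rose and 1 fell without ATRA replicate 1 (44.8% of all genes called), and 2 rose and 1 fell without ATRA replicate 2 (33.1%). Nrip1 alone was called with DESeq2 size factors (4.23% of all genes), with no count filter (0.922%), in the legacy fit (0.603%), with the replicate number as a block (30.9%, or 18.5% with GC correction) and without control replicate 2 (4.59%).

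**Figure D3:**
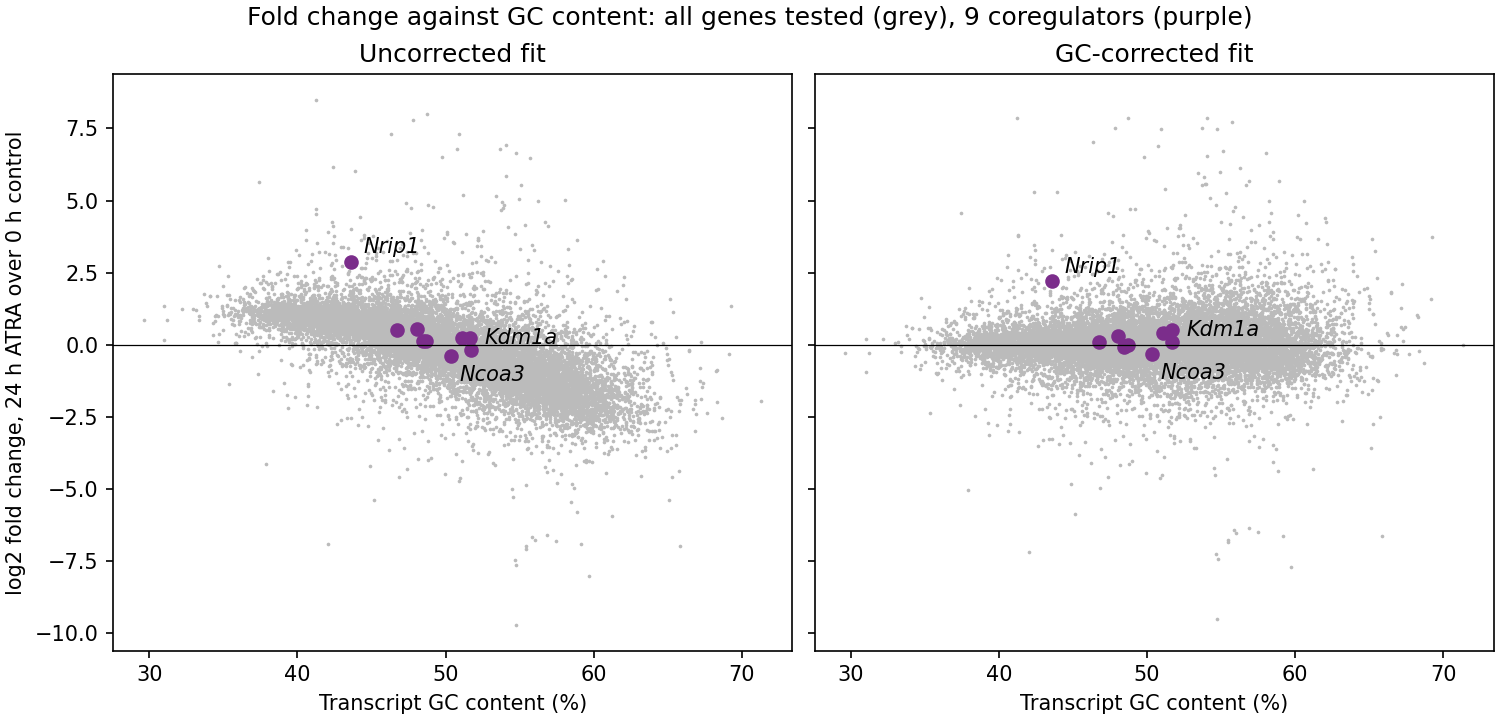
Log2 fold change, ATRA over 0 h control, against transcript GC content for the 14145 tested genes with a GC value (grey points) and the 9 coregulators (purple), without correction on the left and with it on the right. The grey cloud slopes down on the left (rho −0.75) and is level on the right. Nrip1, at 43.6% GC, lies above the median of its GC bin in both (0.82 and 0.02), though not above every grey point.

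Levels of different genes were compared per kilobase of each gene's longest protein-coding transcript, without GC correction. Kdm1a was the most abundant, at 134 ± 12.8 CPM per kb with ATRA and 115 ± 5.30 at 0 h (SD, n = 2 each), and Ncor1 followed, at 48.8 ± 3.37 with ATRA and 44.9 ± 1.01 at 0 h. A middle set of Med1, Ep300 and Ncoa3 lay between 21.1 and 30.1 CPM per kb with ATRA and between 21.4 and 28.0 at 0 h. Within it Med1 and Ep300 overlapped with ATRA. Ncoa2, Crebbp and Ncoa1 were lower, between 3.77 and 7.74 CPM per kb with ATRA and between 3.43 and 5.35 at 0 h. With ATRA Crebbp and Ncoa1 overlapped, and at 0 h Ncoa2 and Crebbp did.

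Nrip1 was last at 0 h and separate from its neighbour Ncoa1, at 1.23 ± 0.0953 CPM per kb. With ATRA it was sixth, at 9.07 ± 0.735 CPM per kb, where its libraries overlapped those of Ncoa2. It made up 3.57% and 2.80% of the summed level of the 9 genes per kb in the ATRA libraries, against 0.473% and 0.522% in the controls. Set against Ncor1 within each library, the ratio of Nrip1 to Ncor1 per kb was 0.207 and 0.167 with ATRA and 0.0256 and 0.0295 at 0 h. Its ratio to Ncoa3 was 0.432 and 0.426 with ATRA and 0.0413 and 0.0470 at 0 h. These shares and ratios are without GC correction, after which the ATRA libraries of Nrip1 were farther apart, at 72.2 and 42.2 CPM.

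**Figure D4:**
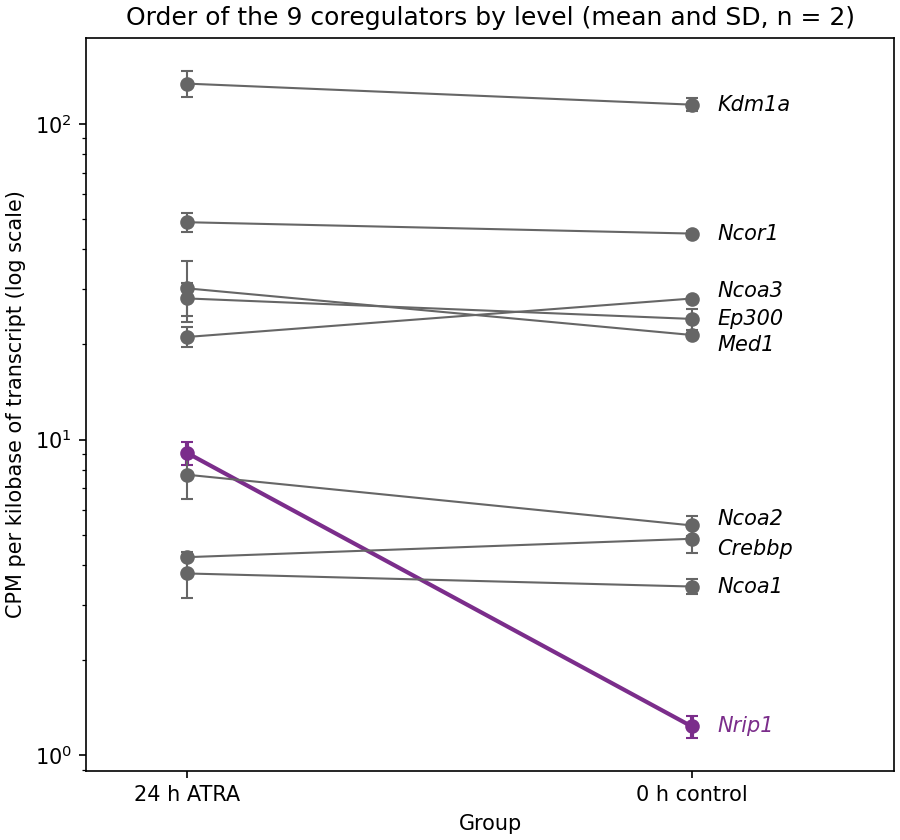
Mean level of each coregulator in CPM per kilobase of transcript (log axis, no GC correction), with 24 h ATRA on the left and the 0 h control on the right and bars for the SD of 2 libraries. The line of Nrip1 joins 9.07 with ATRA and 1.23 at 0 h and crosses those of Ncoa1, Crebbp and Ncoa2, while Kdm1a and Ncor1 are highest in both groups.

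Ratios among paralogs differed by less between the groups. The Ncoa3 to Ncoa2 ratio per kb was 3.25 and 2.32 with ATRA and 5.02 and 5.46 at 0 h, lower in both ATRA libraries. Ncoa3 to Ncoa1 gave 6.67 and 4.76 with ATRA and 8.58 and 7.77 at 0 h, and Ncoa1 to Ncoa2 gave 0.486 and 0.487 with ATRA and 0.585 and 0.702 at 0 h. Ep300 to Crebbp was 5.97 and 7.24 with ATRA against 4.90 and 5.05 at 0 h. In each of these 4 ratios the groups did not overlap. Among single genes tested, 40.0% had both ATRA libraries above both controls and 41.5% had both below. The share over ratios of other genes was not computed. The ratios are descriptions over 2 libraries a group, with no GC correction and no test.

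The genes whose levels followed Nrip1 most closely over the 4 libraries were the HOX gene Hoxb9, the zinc finger gene Tshz1 and the calsequestrin gene Casq1. Likeness was the Euclidean distance between log2 CPM centred on each gene's mean, among 10826 genes with a mean of at least 5 CPM, and came to 0.13, 0.19 and 0.32 log2 units. Their log2 fold changes were 2.95, 2.86 and 2.84, with adjusted p of 0.0343, 0.0343 and 0.0384 by edgeR. This distance includes the difference between the groups, so uncorrected fold changes near that of Nrip1 follow from the choice of these genes. Their transcripts are richer in GC than that of Nrip1, at 52.8%, 53.4% and 51.8%, and their corrected values of 3.46, 3.52 and 3.16 were above its 2.20. The nearest to Kdm1a were Snrpd1, a spliceosome subunit gene, Zcchc2 and the importin gene Ipo5, at distances of 0.02, 0.03 and 0.03. Likeness was measured on uncorrected values. After correction the log2 fold change was 0.39 for Zcchc2, near the 0.52 of Kdm1a, while Snrpd1 stood at −0.54 and Ipo5 at −0.26.

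The wider coregulator machinery was read from 7 further lists, with 85 of 87 genes tested (Ppargc1a and Nr0b2 had too few counts). In the uncorrected fit 0 rose and 0 fell, with 14 and 23 at an unadjusted p under 0.05, where 41.7% of all genes were, and DESeq2's Wald test called 7 higher and 21 lower, where it called 30.5% of all genes. The GC-corrected fit called 7 higher (8.53% of all genes) and 1 lower (7.70% of all genes). The genes of these 8 calls are named after their values were seen. The rises were those of Ncoa6 (0.47) and Ncoa7 (0.74), further coactivator genes, Med14 (0.78), a backbone subunit of Mediator, Rcor1 (0.66) and Zmym3 (1.69) of the CoREST complex, and Smarcc2 (0.99) and Smarce1 (0.92) of the SWI/SNF remodeller, as corrected log2 fold changes. The fall was that of Med18 (−0.82), a head subunit of Mediator. With the replicate number as a block in the corrected fit, Ncoa6 and Med18 were no longer called (edgeR adjusted p of 0.0768 and 0.0572), while Sap30 rose and Hdac1, Med27 and Med28 fell. In each list below, the gene with the highest mean CPM over the 4 libraries, not scaled for length, is also named.

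Of 4 genes of the NCoR complex, the partners of Ncor1, 0 were called in either fit, where 1.13% and, corrected, 16.2% of all genes were. In each fit 1 had an unadjusted edgeR p under 0.05, as did 41.7% and, corrected, 38.2% of all genes. DESeq2's Wald test called 0 of the 4 and 30.5% of all genes. Tbl1xr1, the exchange factor subunit and the highest of the list in CPM, was at 0.57 uncorrected and −0.34 corrected and passed in neither fit. The medians of the list were 0.26 and 0.04.

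Among 9 genes of the CoREST complex, the partners of LSD1, 0 were called uncorrected (1.13% of all genes) and 2 rose after correction (8.53% of all genes). The medians of the list were 0.54 and 0.37. Zmym3, a zinc finger subunit, had a mean of 127 CPM with ATRA against 60.6 CPM at 0 h, with log2 fold changes of 1.07 (edgeR adjusted p = 0.0689) and, corrected, 1.69 (0.00662). The highest of the list in CPM, Zmym2, was at 1.14 and, corrected, 0.11. Rcor1, which encodes the CoREST scaffold itself, was at 0.86 and, corrected, 0.66 (edgeR adjusted p = 0.0304).

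Of 12 other coactivator genes tested, 0 were called uncorrected (1.13% of all genes) and Ncoa6 and Ncoa7 rose after correction (8.53% of all genes). The medians were −0.72 and 0.06. The arginine methyltransferase gene Prmt1, the highest in CPM, was at −1.30 and, corrected, −0.49 (edgeR adjusted p of 0.112 and 0.163). Ncoa7 had a mean of 63.3 CPM with ATRA against 18.7 CPM at 0 h, a log2 difference of 1.75 (adjusted p = 0.0619 by edgeR) and of 0.74 corrected (0.0258). Among the 32 further Mediator genes, with medians of −0.43 and −0.18, 0 were called uncorrected (1.13% of all genes). After correction Med14 rose (8.53% of all genes) and Med18 fell (7.70% of all genes). Med13, the highest in CPM, was at 1.21 and, corrected, 0.21 and passed in neither fit. Med1, at 0.49 and 0.08, lay within the span of these subunits, from −2.25 to 1.54 uncorrected and with at most 0.78 corrected.

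The 14 SWI/SNF genes had medians of −0.40 and 0.12, and their highest gene in CPM, Arid1a, turned from −0.65 to 0.81 with the correction, past the threshold in neither fit. The 8 Sin3 and histone deacetylase genes had medians of 0.56 and −0.16 and 0 calls in both fits, with 2 at an unadjusted p under 0.05 in each fit, and DESeq2 called 1. Rbbp4, the highest in CPM, was at 0.58 and −0.16. The 6 tested ligand-dependent corepressor and CtBP genes also had 0 calls in both fits (5 and 1 at an unadjusted p under 0.05, against 41.7% and 38.2% of all genes, and 4 calls by DESeq2, against 30.5% of all genes), with medians of −0.98 and 0.35. They include Ctbp2, a repressor that RIP140 recruits, which was at −1.04 and 0.13.

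**Figure D5:**
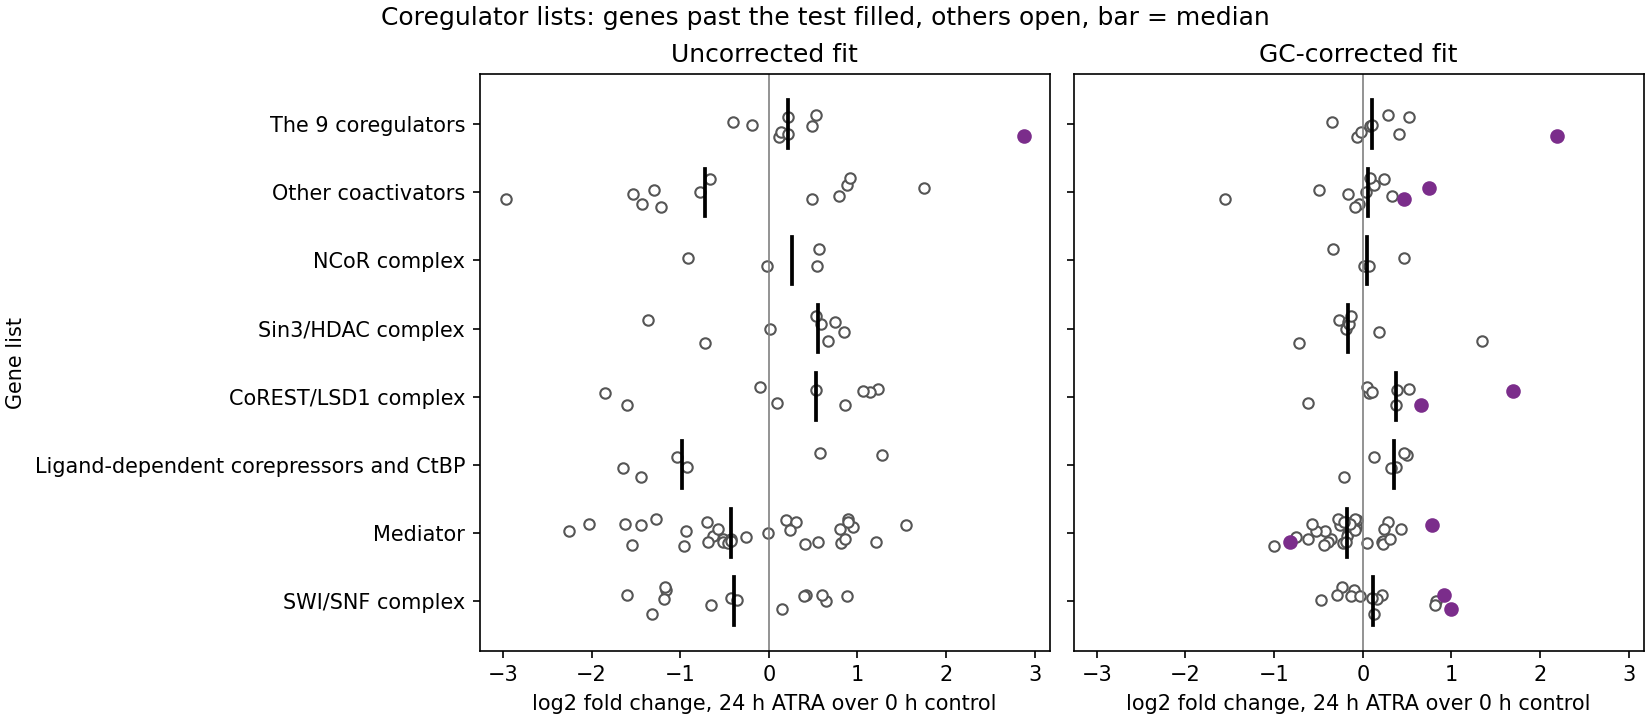
Log2 fold change, ATRA over 0 h control, of each tested gene of the 9 coregulators and of 7 further coregulator lists, without GC correction on the left and with it on the right (filled, adjusted p under 0.05; vertical bar, median of the list). Uncorrected, Nrip1 at 2.88 is the only filled point, and 9 points are filled after correction.

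The receptors that these coregulators serve, and their direct targets, give the setting. Of the 6 RAR and RXR genes Rarb rose, with a mean of 38.7 CPM with ATRA against 0.174 CPM at 0 h, 7.80 on the log2 scale (adjusted p = 0.0124 by edgeR) and of 7.53 corrected. The highest of them in CPM, Rarg, was at −1.72 uncorrected and −0.05 corrected and passed in neither fit. All 6 direct retinoic acid targets listed rose in both fits. Over all genes tested, 0.723% rose without and 8.53% with the GC correction. Stra8 and Hoxb1, with Rarb the ones of smallest p, were at 7.31 and 6.80 on the log2 scale, and Dhrs3 was the lowest, at 3.42, with the value of Nrip1 below it at 2.88. These targets were listed with their rise in these data known, so that all 6 rose was set by that choice.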

How the data were processed

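For each library the authors deposited a table of raw counts, whole numbers of reads listed by gene symbol. HTSeq 0.6.0, TopHat2 2.0.7, Cuffdiff 2.0.2, Cufflinks 2.0.2 and the build mm10 appear in the submitters' processing notes, with no role or order. Annotation and strand setting: not given in the sources used here. Groups and replicate numbers came from the titles. Tests and library sizes exclude the 5 summary lines. Reads in no gene were 64.7% and 66.2% of counted reads with ATRA and 63.4% and 63.9% at 0 h.

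Counts were tested with edgeR 4.0.16 in R 4.3.3: filter by group, TMM factors, robust quasi-likelihood fit with bias-adjusted deviances, F test, Benjamini-Hochberg adjustment over all genes and a threshold of 0.05, with no covariate. The SE was taken as the log2 fold change over the root of F, and intervals are at 95%. The GC correction fitted each library's log2 CPM deviations (prior count 2, genes with a mean log2 CPM above 1) on transcript GC content by robust regression on natural splines with 5 df (MASS 7.3.60.0.1), and the fitted trends entered as offsets, where 99.2% of tested genes had a GC value. Gene symbols were looked up in GENCODE M21, which annotates GRCm38 (mm10), 21777 directly and 1277 through older symbols. The fits were tested on simulated counts with known 2-fold and 4-fold changes. With a linear GC trend planted in the ATRA libraries, steeper in replicate 2 and not fitted to the data, the uncorrected fit recovered 20% and 86% of them. It made 35 false calls among 141. The GC-corrected fit recovered 75% and 100%, with 7 false calls among 182. Without a trend the 2 fits recovered 76% and 77% of the 2-fold changes.

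Named genes were the 9 members, in each list the 3 called genes of smallest p and the gene of highest mean CPM, and the 3 nearest in pattern to Nrip1 and to the other member with the largest corrected change. The members and lists were chosen with earlier results of these data known. Alternatives were DESeq2 1.42.0 (its size factors, or its Wald test), no count filter, the GC correction, a replicate block, each library left out, and, chosen after seeing the data, edgeR's legacy quasi-likelihood. Promoter windows are RefSeq's. A gene of one list is not reported here.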

Additional observations from a re-analysis of the deposited data

Results flagged for a closer look

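Reads in no annotated gene, which enter none of the comparisons, made up 64.7% and 66.2% of the counted reads in ATRA replicates 1 and 2, above the 63.4% and 63.9% of control replicates 1 and 2. Groups of 2 libraries were not searched for outlying libraries.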

How the results depend on the processing

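The Nrip1 rise kept its direction in every alternative run, from 1.77 to 2.98 on the log2 scale with single libraries left out in the uncorrected and GC-corrected fits, and lost its call only without control replicate 1 and, GC-corrected, without either control. DESeq2's Wald test and size factors, the missing count filter, the legacy fit and both replicate block fits called Nrip1 and 0 other members. Replicates share only a number across groups. Over genes, the difference between replicates 1 and 2 with ATRA correlated at 0.18 with that at 0 h. With a pair of replicates a group, this does not pair the libraries. The replicate block left Nrip1 at 2.88 (edgeR adjusted p = 5.98e-08), or 2.15 with the GC correction (0.00273). It moved the count of calls to 4401 (1350 higher, 3051 lower), or with the correction to 2633 (1326 and 1307). Counts over all genes were 603 (232 higher, 371 lower) with DESeq2 size factors, 4350 (1777 and 2573) by DESeq2's Wald test, 86 (62 and 24) in the legacy fit and 2313 (1216 and 1097) with the GC correction. With a single library left out, in the uncorrected and corrected fits together, counts ran from 25 to 10289 (19 to 5011 higher, 6 to 5278 lower), members called higher from 0 to 5 and lower from 0 to 1, and the members' median from 0.015 to 0.30. The lone library is then assumed to vary like the other group.

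Small values of members that did not pass changed sign: Ncor1 (−0.066 with the GC correction, alone and with the replicate block, and −0.11 to 0.17 with a library left out), Ncoa1 (−0.021 and −0.025, −0.13 to 0.29) and Crebbp (0.10 in both, −0.30 to 0.24). Among other named genes, Tbl1xr1 was at −0.34 in both (−0.37 to 0.90), Rbbp4 at −0.16 in both (−0.17 to 0.84), Ctbp2 at 0.13 with the correction (−1.21 to 0.64), Arid1a at 0.81 and 0.73 (−0.75 to 1.24), Snrpd1 at −0.54 and −0.56 (−0.77 to 0.30), Ipo5 at −0.26 and −0.27 (−0.35 to 0.31), Rarg ran from −2.21 to 0.18 and Smarcc2 from −0.14 to 1.13. The cause of these turns was not tested.

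The number of calls in the further lists also varied with the setting. For other coactivators they were 1 (DESeq2 size factors), 6 (Wald test), 6 (block), 2 (GC) and 1 (GC with block), and 0 to 12 with a library left out. The NCoR list had 0 in each of these, and 0 to 3. Sin3/HDAC had 1 (Wald), 1 (block) and 2 (GC with block), and 0 to 7. CoREST had 5, 5, 2 (GC) and 2 (GC with block), and 0 to 7. Ligand-dependent corepressors had 4 and 4 (Wald, block), and 0 to 6. Mediator had 1 (size factors), 8, 8, 2 and 3, and 0 to 29. SWI/SNF had 4, 5, 2 and 2, and 0 to 12. The RAR and RXR genes had 2 (size factors), 5 (Wald) and 6 (block), and 1 to 6. The calls in a list need not be the same genes from one setting to the next. Of all genes tested, 4.23% were called with DESeq2 size factors, 30.5% by the Wald test and 30.9% with the block. With the GC correction 16.2% were called, or 18.5% with GC correction and block. Shares of all genes with a library left out are given above. Depth limited none of the members, whose lowest count was 230.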
